A study of Drosophila melanogaster with 3 samples.

Results

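Bdp1, a subunit of the RNA polymerase III (Pol III) initiation factor TFIIIB, gave some of its strongest peaks at 8 Drosophila genes that are not annotated as Pol III genes. The genes are CG1888, lncRNA:CR43604, sncRNA:CR43701, CG42588, CG34435, CG14100, px and CG11050. Together they carried 10 strong sites among 3206 optimal peaks, since CG1888 and CG42588 held a pair each. The sites were chosen by their measured peak signal: a pooled signal of at least 1000, and a summit inside the listed gene or within 6 kb of one of its annotated transcript 5′ ends. A site was left out if its peak overlapped 100 bp on either side of the 5′ end of a tRNA, U6, U6atac, 7SK or RNase MRP RNA gene. Peak signals and ranks are therefore given as a description, without a test.

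The study profiled a transgenic Drosophila melanogaster line that expresses CG9305, the gene now called Bdp1, with GFP fused to its C terminus. Chromatin of whole embryos aged 0 to 24 h, of both sexes pooled, was sonicated to 200 to 800 bp and precipitated with an antibody against GFP. The 3 samples are biological replicates of a single group, and no other genotype, stage or treatment was compared. Each is a mixture of all embryonic cell types and stages, so a strong peak can come from many cells or from few with high occupancy, and peak lists cannot tell these apart. The read depth behind the peaks is unknown, because the lists give no read counts; each relaxed list held 30000 peaks.

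Pol III makes tRNAs, U6, 7SK and other short non-coding RNAs. At tRNA genes the factor TFIIIC binds promoter elements inside the transcribed sequence, the A box and, further downstream, the B box, and places TFIIIB just upstream of the start. At U6-type genes the elements lie upstream, as a proximal sequence element (PSEA in flies) and a TATA box. Pol III stops at runs of T in the non-template strand.

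The sequences around the summits are shown for 7 sites because the question of a Pol III promoter is one of sequence. Those of px, which also holds an exact B box core, and of both CG1888 sites are not shown. The sequences shown are from the RefSeq copy of the dm6 assembly, 5′ to 3′, on the plus strand except CG14100, which is on the minus strand of its gene. The first 3 run from 20 bases before the summit to 150 bases after it, and the others from 60 before to 60 after. Capitals mark matches to the A box consensus or to the B box core GTTCNANNC. The capitals in sncRNA:CR43701 have 1 mismatch to that core and all others match exactly. Further matches with 1 mismatch in these stretches, also in other sites, were left in lower case. With 1 mismatch allowed, the core lay within 100 bp at 10 of 10 listed sites and 74.1% of optimal peaks outside Pol III genes. The stretches are chr2L:8485692-8485862 for lncRNA:CR43604, chr3L:1488702-1488872 for sncRNA:CR43701, chr3L:12815858-12816028 and chr3L:12814939-12815059 for CG42588 sites 1 and 2, chrX:5613194-5613314 for CG34435, chr3L:19590558-19590678 for CG14100 and chr2L:6612662-6612782 for CG11050.
lncRNA:CR43604: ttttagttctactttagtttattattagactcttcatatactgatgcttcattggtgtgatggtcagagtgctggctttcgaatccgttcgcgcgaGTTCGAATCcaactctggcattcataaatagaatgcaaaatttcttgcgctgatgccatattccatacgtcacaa
sncRNA:CR43701: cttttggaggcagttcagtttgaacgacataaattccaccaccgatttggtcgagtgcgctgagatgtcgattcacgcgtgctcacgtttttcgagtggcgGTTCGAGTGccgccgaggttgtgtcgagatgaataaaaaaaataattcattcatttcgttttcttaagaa
CG42588 site 1: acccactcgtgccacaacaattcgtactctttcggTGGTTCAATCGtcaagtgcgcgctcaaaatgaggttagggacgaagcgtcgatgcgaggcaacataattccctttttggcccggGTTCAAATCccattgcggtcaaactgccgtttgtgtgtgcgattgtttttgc
CG42588 site 2: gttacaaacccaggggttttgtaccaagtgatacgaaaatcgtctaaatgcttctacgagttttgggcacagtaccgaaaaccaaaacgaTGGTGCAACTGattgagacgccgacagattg
CG34435: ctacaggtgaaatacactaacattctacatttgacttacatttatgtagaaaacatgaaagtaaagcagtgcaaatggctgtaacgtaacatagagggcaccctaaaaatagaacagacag
CG14100: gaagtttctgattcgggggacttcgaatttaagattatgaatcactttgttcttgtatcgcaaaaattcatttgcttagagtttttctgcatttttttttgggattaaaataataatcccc
CG11050: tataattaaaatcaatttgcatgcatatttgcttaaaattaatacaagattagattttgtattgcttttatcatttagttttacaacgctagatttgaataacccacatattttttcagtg

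Across the pooled optimal list, 145 of 3206 peaks (4.52%) reached a signal of 1000, and 121 of these lay at an annotated Pol III gene. Outside such genes 24 of 2970 peaks (0.808%) did, and the 10 listed sites are among these 24. As the rule used the signal, nothing is read from those shares. Among peaks outside Pol III genes, the nearest above the threshold were ph-p at 1094, CG1888 site 2 at 1096 and PNPase at 1159. The nearest below it were CHMP2B at 979.9, CG6565 at 976.4 and lncRNA:CR44619 at 974.9. In the listed set the pooled rank ran from 7 at CG1888 site 1 to 133 at CG1888 site 2.

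**Figure D1:**
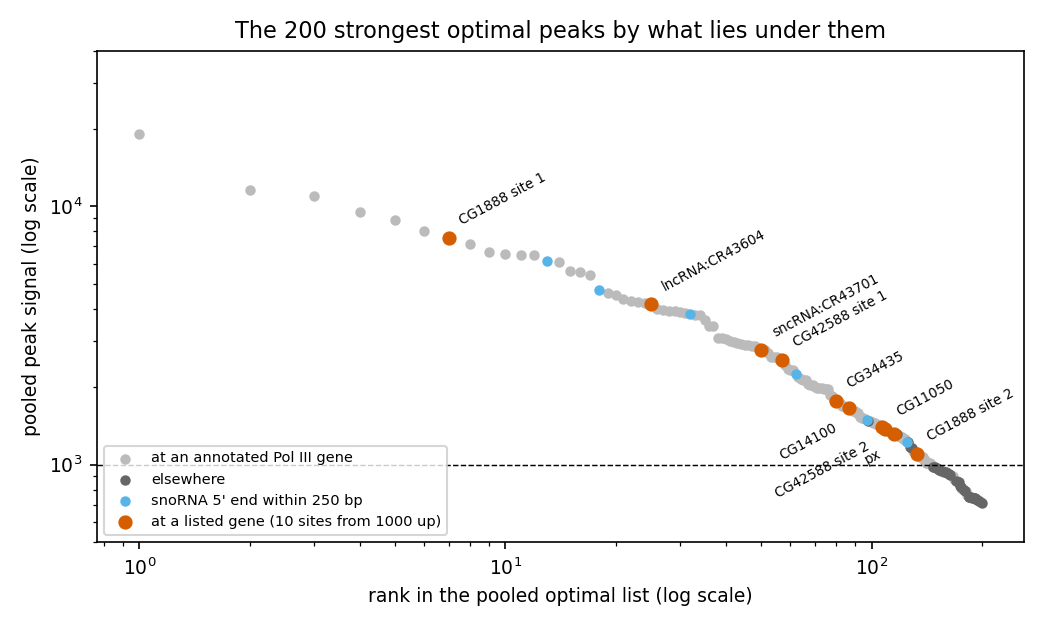
Pooled peak signal (vertical, log scale) against rank (horizontal, log scale) for the 200 strongest optimal peaks, coloured by what lies under them; the dashed line is the signal of 1000. The listed sites run from rank 7 to rank 133, scattered among peaks at Pol III genes.

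The pair of small non-coding RNA genes held the sites closest to an annotated start. The summit at lncRNA:CR43604 (FBgn0263489, chr2L:8485725-8485925 on the plus strand) lay at 8485712, 13 bp upstream of its 5′ end, in an intron of dachs, which encodes an atypical myosin of the Fat signalling pathway. Its peak spanned 8485491 to 8485976, with a pooled signal of 4182 and rank 25. It had the closest Pol III gene of the 10 sites, tRNA:Asp-GTC-1-3, whose 5′ end was 3557 bp away, and the next optimal peak was 3223 bp away. In replicates 1, 2 and 3 the peak ranked 25, 32 and 20, and its signal relative to the median optimal peak of the replicate was 27.7, 27 and 29.9. The mean was 28.2 ± 1.5 (SD, n = 3).

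sncRNA:CR43701 (FBgn0263839, chr3L:1488739-1488831, plus strand, 93 bases) had its summit at 1488722, 17 bp upstream of its 5′ end. The site lies in an intron of stet, which encodes a rhomboid protease. The 5′ end of snoRNA:Psi28S-2622 was 184 bp downstream of the summit, on the same side as the sncRNA, so the summit lies upstream of both genes, while the peak covers the sncRNA and the 5′ end of the snoRNA. The peak spanned 1488473 to 1488931 and had a pooled signal of 2775 and rank 50. It ranked 43, 60 and 39 in replicates 1, 2 and 3, with relative signals of 19.1, 17.9 and 19.4, a mean of 18.8 ± 0.808 (SD, n = 3).

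CG42588 held a pair of sites, both in introns and 879 bp apart, with no optimal peak between them. Site 1 had its summit at 12815878 on 3L, 1624 bp downstream of the 5′ end of CG42588 (FBgn0260965, chr3L:12814254-12824650, plus strand). Its pooled signal was 2541 and its rank 57, and it ranked 52, 57 and 53 in replicates 1, 2 and 3. Site 2, at 12814999 and 745 bp downstream of the 5′ end, had a signal of 1403 and rank 107, with ranks 112, 110 and 93. The relative signals were 16.3, 18.6 and 16.3 at site 1, against 9.01, 9.77 and 9.71 at site 2, so site 1 was the stronger in all 3 replicates. The nearest other gene was Sf3a2, a component of the splicing machinery, whose 5′ end was 980 bp from site 2 and 1859 bp from site 1.

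The strongest of all 10 sites lay outside any annotated gene. CG1888 site 1 (chr2R:9541479-9542041, summit 9541771) had a pooled signal of 7553 and rank 7, and its summit was 176 bp past the 3′ end of CG1888 (FBgn0033421, minus strand). It was 5187 bp from the nearest transcript 5′ end of that gene but 6364 bp from the outermost one, so it meets the distance rule only if every annotated transcript start is used. It ranked 8, 13 and 4 in replicates 1, 2 and 3, with relative signals of 45.2, 45.1 and 61.6, a mean of 50.6 ± 9.49 (SD, n = 3). CG34435 was also past a 3′ end: its summit at 5613254 on X was 71 bp past the end of CG34435 (FBgn0085464, minus strand) and 1213 bp from its 5′ end. Its signal was 1768 and its rank 80, and it ranked 91, 99 and 64 in replicates 1, 2 and 3, with relative signals of 10.7, 11.1 and 13.5. A weaker optimal peak with a signal of 112 lay 219 bp away.

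The remaining sites lay near coding starts or in introns. CG14100 (FBgn0036889, minus strand) had its summit at 19590618 on 3L, 94 bp upstream of its 5′ end, with a signal of 1654, rank 87 and replicate ranks of 101, 91 and 77. Its relative signals were 9.54, 12 and 11.5, with replicate 1 below the others. Its nearest Pol III gene was 972228 bp away, the greatest distance of the 10. px, a gene known for its role in wing vein patterning, had its summit at 22514314 on 2R, in an intron but 215 bp upstream of the 5′ end of an internal transcript; the outermost 5′ end was 47751 bp away. Its signal was 1312, with replicate ranks of 134, 100 and 120. CG1888 site 2 (summit 9547190) lay in an exon, 232 bp upstream of an internal transcript start and 945 bp downstream of the outermost one, 5419 bp from site 1. Its signal was 1096, and it ranked 156, 119 and 148. CG11050 (FBgn0031836, plus strand) had its summit at 6612722 on 2L in an intron, 1035 bp downstream of the nearest transcript 5′ end. Its signal was 1368, with replicate ranks of 119, 125 and 89 and relative signals of 8.6, 8.72 and 10.1. The nearest 5′ end of another gene was that of lncRNA:CR44913, 6358 bp away. An annotated transposable element lay within 500 bp of 0 of the 10 summits, against 1.35% of optimal peaks outside Pol III genes.

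**Figure D2:**
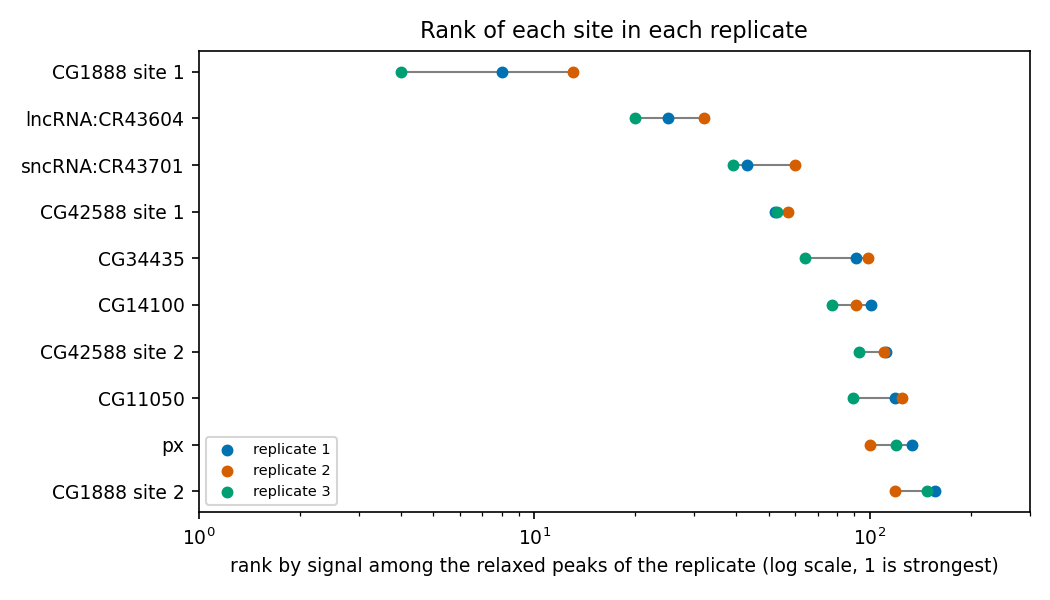
Rank by signal (horizontal, log scale, 1 is the strongest) of each listed site among the peaks of each replicate; points are replicates and grey lines their range. CG1888 site 1 ranked 8, 13 and 4, and CG1888 site 2 ranked 156, 119 and 148.

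The order of the sites held in some places and not in others. CG1888 site 1 was above lncRNA:CR43604 in 3 of 3 replicates without overlap of relative signals, and lncRNA:CR43604 was above sncRNA:CR43701 in the same way. The ranges of sncRNA:CR43701 and CG42588 site 1 overlapped. CG42588 site 1 was above CG34435 without overlap. From CG34435 down, each neighbouring pair in the order overlapped. Among pairs farther apart, CG34435 lay above CG42588 site 2, CG11050 and CG1888 site 2 without overlap, and so did CG14100 above CG1888 site 2; all other pairs of these 6 sites overlapped. In px and CG1888 site 2 replicate 2 stood above the others, with relative signals of 11 and 9.07 against 7.27 and 7.66, and 6.31 and 6.15. Beside them, the median of strong peaks at Pol III genes was 14.9, 15.7 and 13.4 in replicates 1, 2 and 3, and that of all optimal peaks outside Pol III genes was 0.955, 0.96 and 0.958.

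**Figure D3:**
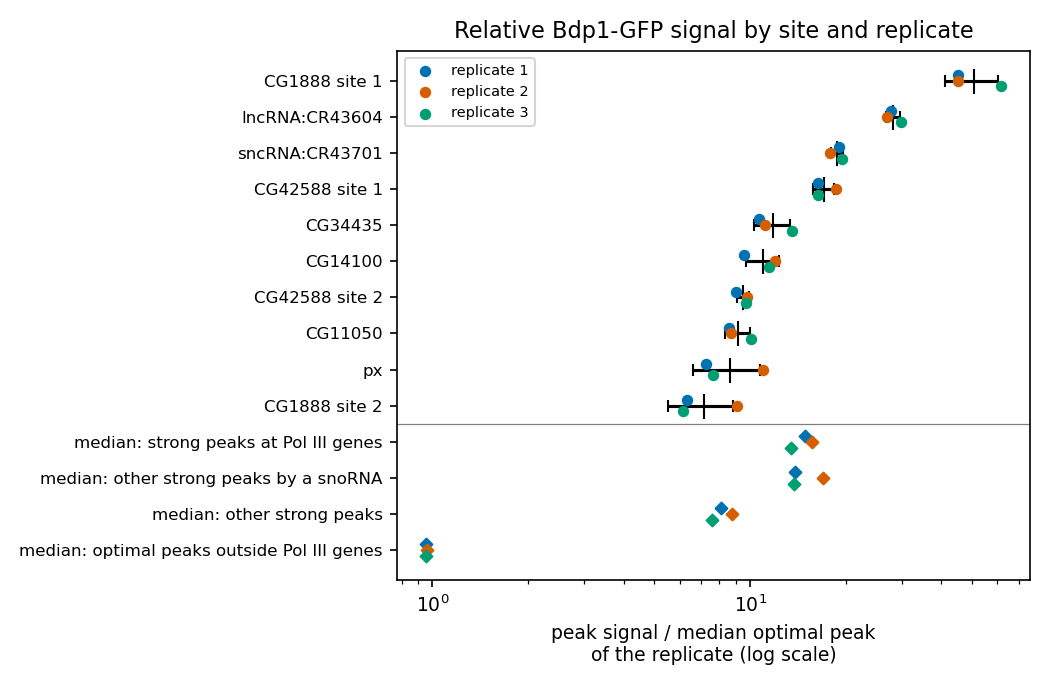
Peak signal divided by the median optimal peak of the replicate (log scale) for each listed site; points are replicates, bars the mean and SD of 3. Diamonds give the medians of other sets; CG1888 site 1 has a mean of 50.6 and CG1888 site 2 a mean of 7.17.

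The replicates placed their summits close together. The spread between the replicate summits ran from 4 bp at CG1888 site 1 and sncRNA:CR43701 to 31 bp at CG14100, with a median of 14.5 bp. The median was 12 bp over strong peaks at Pol III genes, 56 bp over optimal peaks outside Pol III genes, 12 bp over the 7 other strong peaks with a snoRNA 5′ end within 250 bp and 24 bp over the 7 without. All 10 sites had a peak in each of the 3 replicates, as did 94.6% of optimal peaks outside Pol III genes. These set medians are given side by side, without a test.

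**Figure D4:**
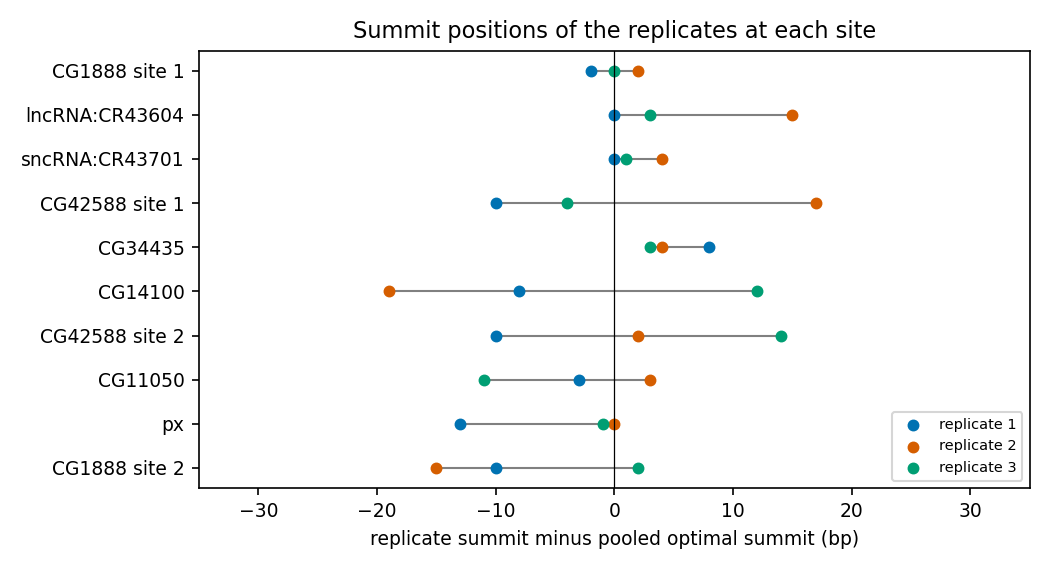
Distance of each replicate's summit from the pooled summit (bp) at the listed sites; points are replicates and grey lines their range. The widest range is 31 bp at CG14100 and the narrowest 4 bp.

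Motif letters were searched on both strands within 100 bp of each summit; overlapping matches were counted once per site. The B box core was found at 2 of the 10 sites, lncRNA:CR43604 and px, against 6.33% of optimal peaks outside Pol III genes and 63.6% of those at Pol III genes. The A box consensus was found at 3, both CG42588 sites and CG1888 site 2, against 25.5% and 86.4%. TATAAA was found at 0, against 29.7% and 28%, and the PSEA core TCCCANNTG at 0, against 1.95% and 6.78%. TTTTT was found at 9, against 78% and 69.9%. Within 200 bp the B box count rose to 3 with CG42588 site 1, against 13.2% and 92.8%.

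In the sequence of lncRNA:CR43604 the B box core starts 76 bp after the summit, and in that of CG42588 site 1 it starts 99 bp after it. At 89 of the 96 isolated tRNA genes with a peak, the first B box core inside the gene started at a median of 83 bp from the summit, with quartiles of 74 and 105 bp. The sncRNA:CR43701 match with 1 mismatch starts at 81 bp, inside the annotated RNA. Other matches with 1 mismatch at this site lay on the minus strand, at 4 and -178 bp. lncRNA:CR43604 held further matches with 1 mismatch inside its annotated RNA, at 56 and 135 bp. With 1 mismatch allowed the core was found within 100 bp at 10 of 10 listed sites, and at 74.1% of optimal peaks outside Pol III genes and 93.2% of those at them. At px the exact core starts 50 bp after the summit, outside the tRNA quartiles. The run of at least 4 T that follows the core began 126 bases after it at lncRNA:CR43604 and 49 at sncRNA:CR43701. At CG42588 site 1 this run began 36 bases after the core, and at px 10. At tRNA genes the median was 21 bases, with quartiles of 18 and 26. A TTTTT on the same strand also came before the core at CG42588 site 1, at 87 bp, after the A box match at 15 bp. In sncRNA:CR43701 a TTTTT lay at 67 bp, inside the annotated RNA and before the match at 81 bp. At lncRNA:CR43604 and px no TTTTT lay on that strand between the summit and the core. How often tRNA genes hold such a run before the core was not tested.

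With exact matches only, CG42588 site 1 was the only listed site with an A box consensus followed on the same strand by a B box core, 84 bp from start to start. A spacing of 20 to 100 bp was allowed, within 200 bp of the summit. The share with this layout was 0.707% outside Pol III genes and 85.6% at them. The layout was also found at 3 of the 7 other strong peaks by a snoRNA and at 1 of the 7 others. The longest exact run of letters that CG42588 site 1 shared with tRNA genes was 16 bases, starting 94 bp after the summit. It spans the B box core and occurs in 13 proline tRNA genes. A run as long was shared by 6 of 2970 peaks outside Pol III genes (0.202%). CG14100 shared 12 bases, and 7.21% of peaks outside Pol III genes shared a run at least as long. The other 8 sites shared 9 to 11. Among peaks outside Pol III genes, 98.2% shared a run of at least 9 and 24.3% a run of at least 11. A blastn match to any of the 400 annotated Pol III RNA genes searched was found at 0 of the 10 sites, against 0.101% of peaks outside Pol III genes, so the count is at the background. All 10 matched the genome only at their own place, as did 13 of the 14 other strong peaks outside Pol III genes.

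**Figure D5:**
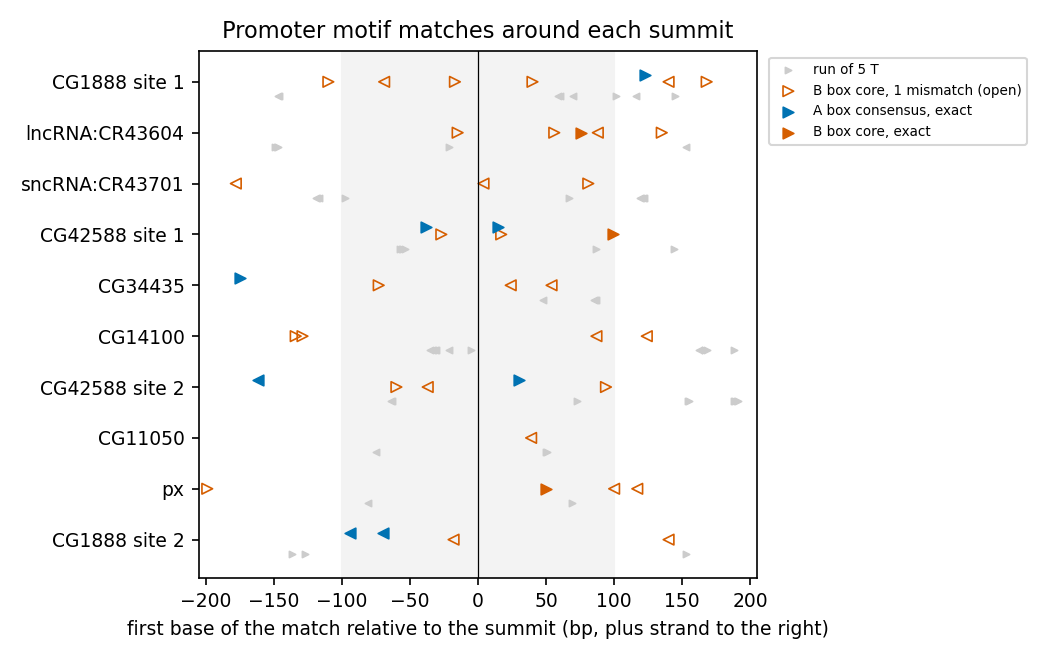
Positions of motif matches within 200 bp of each listed summit (bp, plus strand to the right); arrowheads give the strand, filled marks exact matches and open marks B box cores with 1 mismatch, and the grey band the 100 bp searched first. Filled B box marks stand at 76 bp for lncRNA:CR43604, 99 bp for CG42588 site 1 and 50 bp for px.

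The other 14 strong peaks outside Pol III genes fell into 7 with a snoRNA 5′ end within 250 bp of the summit and 7 without. The first were at snoRNA:Psi18S-176, snoRNA:Psi28S-3342, snoRNA:Or-aca4, snoRNA:CG31191-a, snoRNA:Dek-a, snoRNA:Me18S-A1806 and snoRNA:gcl-a, with pooled signals from 1224 to 6140. The second were at Ugalt, cbt (in an intron of ush), Fie, Chro, Lk6, PNPase and ph-p, with signals from 1094 to 1475. Of the listed sites, sncRNA:CR43701 also has a snoRNA 5′ end within 250 bp. The median relative signal of the listed sites was 10.1, 11.6 and 12.5 in replicates 1, 2 and 3. It was 13.8, 17 and 13.7 for the snoRNA peaks and 8.07, 8.74 and 7.61 for the other strong peaks. An exact B box core lay within 200 bp at 6 of the 7 snoRNA peaks, at 3 of the 10 listed sites and at 1 of the 7 others.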

How the data were processed

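The authors deposited peak lists on build dm6: a relaxed list per replicate, a relaxed list of the replicates pooled, and the optimal list thresholded by irreproducible discovery rate. The value used is the peak signal as deposited by the authors; their deposited text names a control alignment as an input to peak calling. Not given in the sources used here are the caller, its parameters and the scale of the signal. Values were therefore compared within a list, and over replicates only as ranks or after division by the median signal of all optimal peaks in that replicate; the peak of a replicate was the strongest one holding the pooled summit. The lists on the older build were not used here.

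Genes came from the BDGP 6.54 annotation (Ensembl release 115) and sequence from the RefSeq dm6 assembly. Python 3.11.15, pandas 2.3.3, pysam 0.24.0 and blastn 2.17.0 were used, with a blastn E of 0.001 and a minimum match of 30 bp in 301 bases around the summit. The motif search was tested on simulated data. The named genes are the listed genes, the genes under or next to each summit, the nearest Pol III and snoRNA genes, and, among peaks outside Pol III genes, the 3 on each side of the threshold. The members, lists and searches were chosen with earlier results of these data known. The distance rule was read as the distance to any annotated transcript 5′ end; the plan had named the outermost end, and that reading gives 9 sites. The A-then-B layout, the longest shared tRNA run, the distance to a T run and the grouping by snoRNA distance were chosen after seeing the data. Columns without a sample numbered 0.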

Additional observations from a re-analysis of the deposited data

How the results depend on the processing

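The count of 24 strong peaks outside Pol III genes was 103 at a threshold of 500 and 8 at 2000, and ran from 16 to 31 under the other rules for a Pol III gene. The 8 genes with a strong site became 4 at a threshold of 2000, and 7 or 8 under the other rules tried. Of the 10 sites, 9 were left when only the outermost 5′ end, or a distance of 2 kb, was used; both were added after seeing the data. As the pooled signal chose the sites, their replicate ranks are largely set by it: all 10 were among the 1000 strongest peaks of every replicate and 5 among the 100 strongest; leaving out any replicate gave 10 to 10. The 2 sites with a B box became 3 within 200 bp, 1 with the strict core GTTCGANNC, and 10 with 1 mismatch, within 100 or 200 bp. Relative signals stayed within 1 SD in all 20 values with another peak matching. They also did so in all 30 values with a replicate left out. With 3 replicates the mean cannot move by 1 SD when 1 is left out, so that outcome was fixed in advance. All 10 moved when divided by the median Pol III peak, which is another scale. With a replicate left out, 12 of 30 summit spreads moved, as fewer replicates give a narrower range. No paired analysis was possible because there is 1 group. Depth is unknown, so no counting error can be given.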
